A study of Homo sapiens with 12 samples.

Results

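The 36 genes described act in mitosis and in the mitotic spindle, were chosen by symbol as well-known members of this programme, and were all found in both expression tables, out of 25540 genes that the tables share. They were followed by RNA-seq in LS411N, an established line of human colorectal cancer cells, and in its derivative LS411N-BR, which resists BRAF inhibition and was kept in 4 µM of a BRAF inhibitor that LS411N did not receive. Both lines carry tet-MUC1shRNA, a hairpin against the mucin gene MUC1 that doxycycline (DOX) switches on, and the series asks how MUC1-C bears on the response to BRAF inhibition. The 4 groups, each of 3 libraries, are LS411N-BR with 500 ng/ml DOX, LS411N-BR without DOX, LS411N with 500 ng/ml DOX and LS411N without DOX, and the cells without DOX received 0.1% DMSO as the vehicle. All 12 libraries therefore come from cells that hold the hairpin, and no group received DOX without it, so effects of the hairpin, of the drug itself and of the vehicle cannot be told apart. Line and inhibitor cannot be told apart either, since only the medium of LS411N-BR held the inhibitor.

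In mitosis, cyclin B with its kinase CDK1 drives the cell into division, kinetochores built on centromeric chromatin capture spindle microtubules, and a checkpoint holds the anaphase-promoting complex (APC/C) until every chromosome is attached. The chromosomal passenger complex corrects faulty attachments, and the proteins of the central spindle then place the furrow that divides the cell. Most of these genes are transcribed late in the cell cycle, through promoter elements read by the DREAM and MuvB complexes and by FOXM1, so their mRNA is widely used as a sign of how many cells of a population are dividing.

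Values are TPM, the length-scaled share of a gene in the transcripts of a library, divided for each library by a median-of-ratios factor so that the typical gene has the same level in all 12 libraries, and are called rescaled TPM. The rescaling matters here, because short RNA genes took 49.2% ± 2.09 of the deposited TPM in LS411N-BR with DOX, against 52.8% ± 1.02 without it, and 53.1% ± 2.09 in LS411N with DOX, against 53.7% ± 6.37 without it (SD, n = 3 each). Each library listed 15116 to 17999 genes above 0; its read total is not known, so the depth behind each value is unknown. Replicate 3 of LS411N without DOX stood apart, with an SD of log2 differences of 0.208 and 0.210 when set against replicates 1 and 2, where all remaining replicate pairs gave 0.0851 to 0.122. MUC1 itself had 0.585, 0.354 and 0.388 rescaled TPM in LS411N-BR with DOX, against 3.84, 3.80 and 4.39 without it. In LS411N it had 0.991, 0.826 and 1.04 rescaled TPM with DOX, against 5.54, 7.24 and 4.18 without it, so the target was lower in every library with DOX. Of 12 colon epithelium markers 11 reached 1 rescaled TPM in some library of each group. Their sum ran between 4160 and 4299 rescaled TPM in LS411N-BR with DOX, against 3377 to 3530 without it, and between 3512 and 3759 in LS411N with DOX, against 2756 to 2957 without it. Of the 11 markers tested in each line, 9 had a log2 fold change above 0 and 2 below. GPA33 averaged 38.2 rescaled TPM in LS411N-BR with DOX, against 75.1 without it, and 6.74 in LS411N with DOX, against 11.1 without it. The sum of 6 fibroblast markers ran between 2.58 and 3.34 rescaled TPM in LS411N-BR with DOX, against 1.56 to 1.92 without it, and between 0.638 and 0.823 in LS411N with DOX, against 0.338 to 0.573 without it. LUM alone made up most of the difference, with means of 2.38 rescaled TPM in LS411N-BR with DOX, against 1.33 without it, and 0.364 in LS411N with DOX, against 0.134 without it. The 4 endothelial markers summed to at most 0.0374 and the 5 immune markers to at most 0.151 rescaled TPM in any library. The part of these marker levels in the results on the 36 genes was not tested.

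With the hairpin induced, most of the 36 genes fell by a small margin in both lines after rescaling, whereas on TPM as deposited their median in LS411N-BR was slightly above 0. In LS411N-BR, limma called 26 of the 36 lower and 2 higher at a Benjamini-Hochberg adjusted p under 0.05, beside 31.8% of all 11228 tested genes called lower and 33.1% called higher. In LS411N it called 26 lower and 1 higher, beside 16.4% of 11378 tested genes called lower and 18.2% called higher. The median log2 fold change of the 36 was -0.17 in LS411N-BR, against 0.00 over all tested genes, and -0.22 in LS411N, against 0.01 over all tested genes. The changes were small: the percent change of the genes called lower ran between -4.96% and -30.7% in LS411N-BR, with a median of -15.5%, and between -9.25% and -28.4% in LS411N, with a median of -17.5%. No member changed as much as 2-fold in either line. In bulk RNA, fewer dividing cells and less mRNA per dividing cell cannot be told apart. The cells were grown in triplicate with no further word on days or passages, so the p-values measure the spread between these libraries, which may be technical. CCNA2, PLK1, MAD2L1, NUF2, KIF2C, KIF23, PRC1, ANLN and FOXM1 share exonic bases with a gene on the opposite strand. NUSAP1 and PRC1 share them with a gene on the same strand. MKI67, CCNB2, AURKA, CDC20, UBE2C, BUB1 and BUB3 have annotated pseudogenes. Some reads of all these genes may therefore have been split or shared in counting.

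The same 20 genes were called lower in both lines, and CDC25B was called higher in both. Of all tested genes, 31.8% were called lower in LS411N-BR and 16.4% in LS411N. The share of all tested genes called in the same direction in both lines was not counted. CCNA2, CDK1, PLK1, AURKB, MAD2L1 and FOXM1 were called lower in LS411N-BR and not in LS411N, and MKI67, BUB1B, BIRC5, INCENP, KIF20A and ANLN were called lower in LS411N and not in LS411N-BR. NUSAP1 and MYBL2 were called in neither line, and KIF23 was called higher in LS411N-BR only; whether those members differ between the lines is tested further on. In LS411N-BR the 3 libraries with DOX lay below all 3 without it for 28 of the 36 genes, beside 34.1% of all tested genes, and above them for 2, beside 35.4%. In LS411N they lay below for 26 genes, beside 24.1% of all tested genes, and above for 1, beside 25.2%.

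The calls in LS411N-BR were steadier than those in LS411N. When each library was left out in turn, 27 of the 28 calls in LS411N-BR held in every case, all but that of CCNA2. In LS411N 17 of 27 held, and MKI67, CCNB1, TTK, BIRC5, INCENP, CENPA, NDC80, KIF11, KIF2C and TPX2 lost the call without at least 1 library, with limma adjusted p of at most 0.154. The count called lower in LS411N was 19 without replicate 1 and 20 without replicate 2 of the libraries without DOX, 29 without their replicate 3, and 19, 19 and 18 without replicate 1, 2 or 3 of those with DOX.

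**Figure D1:**
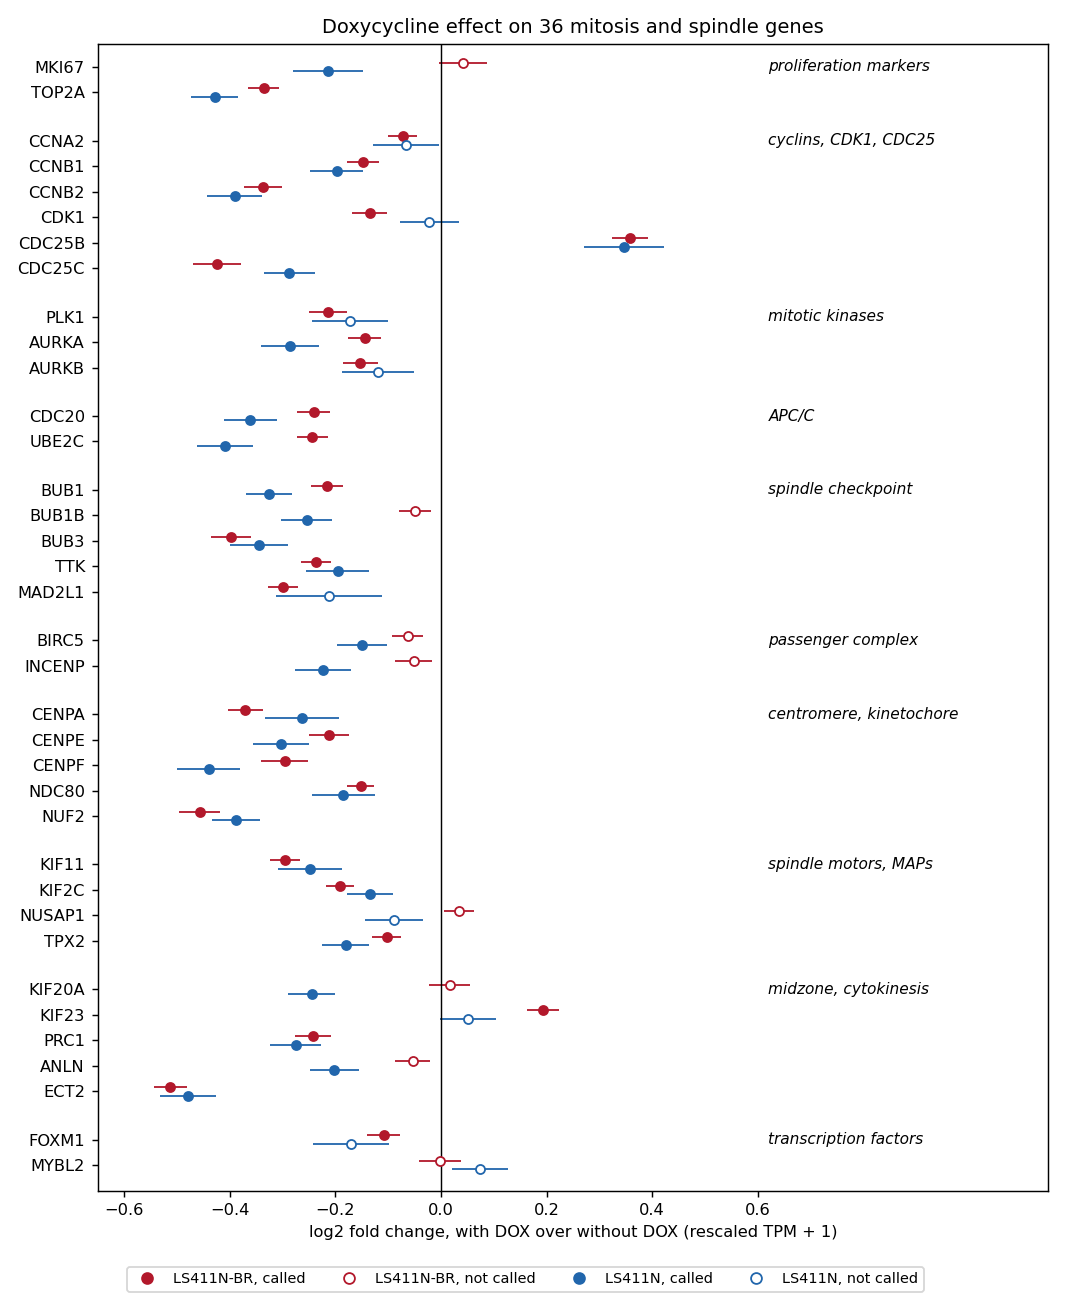
Log2 fold change with DOX over without DOX (x axis, on log2 of rescaled TPM + 1) of each of the 36 genes (rows, grouped by role), with its standard error as a bar; red points are LS411N-BR and blue points LS411N, filled where limma called the gene. Most filled points lie left of 0 and CDC25B lies right of it in both lines. On TPM as deposited the median of the 36 in LS411N-BR moves to 0.03, beside 0.18 over all tested genes.

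The choice of scaling decides how these changes read in LS411N-BR. On TPM as deposited, 10 of the 36 genes were called higher and 7 lower in that line, beside 6351 of all tested genes higher (56.1%) and 1252 lower (11.1%), and the median over all genes was 0.18. The 7 that stayed lower were TOP2A, CCNB2, CDC25C, BUB3, CENPA, NUF2 and ECT2, so their decreases were called under both scalings. In LS411N, deposited TPM left CDC25B as the only member called by limma, beside 9.75% of all tested genes called higher and 3.43% called lower, with no member called lower, 6 lower at an unadjusted p under 0.05, beside 6.67% of all genes, and a median of -0.14, beside 0.08 over all genes. Set against the median of all genes, the median of the 36 was lower under both scalings in both lines. These scalings differ by a single factor per library, which moves nearly all genes alike, so this is not a second result. Rescaling to the sum over protein-coding genes, an alternative added after seeing the data, gave 23 lower and 2 higher in LS411N-BR and 21 lower and 1 higher in LS411N. Over all genes it gave 3169 lower and 4411 higher of 12401 tested in LS411N-BR, and 1532 lower and 2410 higher of 12491 in LS411N.

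**Figure D2:**
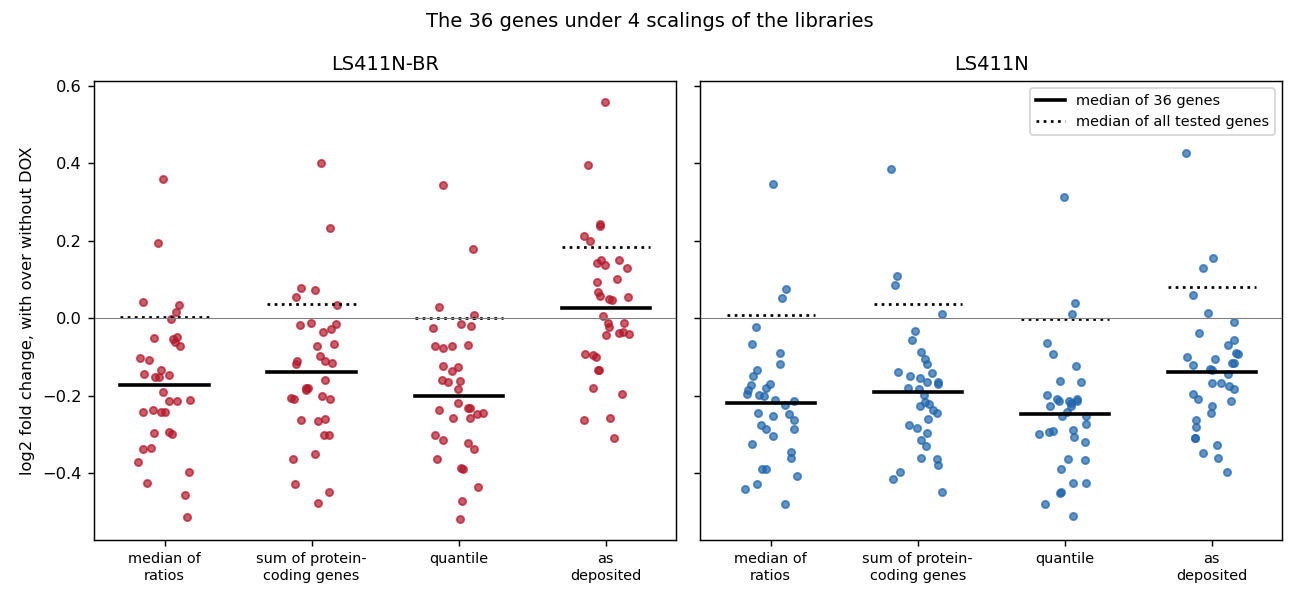
Log2 fold change with DOX over without DOX (y axis) of the 36 genes (points) in LS411N-BR (left panel) and LS411N (right panel) under 4 scalings of the libraries (x axis); solid lines are the median of the 36 and dotted lines the median of all tested genes. The solid line lies below the dotted one in every column, and in LS411N-BR as deposited it lies at 0.03 with the dotted line at 0.18. Apart from quantile normalization, the scalings differ by a single factor per library, which moves both medians nearly alike.

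After rescaling, the libraries with DOX stood apart from those without it in both lines when the 36 genes were summed up by their median, a separation that deposited TPM did not give. Relative to the mean of its own line without DOX, the median log2 level of the 36 genes was -0.174, -0.182 and -0.180 in the LS411N-BR libraries with DOX, against 0.011, -0.015 and 0.005 without it. In LS411N it was -0.232, -0.208 and -0.240 with DOX, against 0.003, -0.000 and 0.004 without it. Replicate 3 of LS411N without DOX lay with its group in this summary after rescaling, while on deposited TPM it stood at 0.246 and replicates 1 and 2 at -0.123 and -0.115. On deposited TPM the LS411N-BR libraries with DOX stood at 0.089, -0.039 and 0.016, against -0.029, 0.051 and -0.019 without it, and overlapped.

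Most of the promoters found for these genes hold a pair of short sequence elements that the choice of members did not use. The cell cycle genes homology region (CHR) is bound by the MuvB core of the DREAM complex, and the CCAAT box by the factor NF-Y; E2F words are read by the E2F factors at promoters of earlier cell cycle genes. RefSeq promoter windows on GRCh38.p14, from 250 bases before to 50 after an annotated start, were found for 29 of the 36 genes and searched on both strands for the CHR letters TTTGAA or TTCGAA, for CCAAT, and for the E2F words TTTCCCGC, TTTGGCGC, TTTCGCGC or TTTGCCGC. A CHR word stood in a window of 22 of the 29 genes (75.9%), against 19.5% of 27305 genes with a window, and CCAAT in 22 (75.9%), against 39.7%. Both stood together for 18 of the 29 (62.1%), against 7.85% of all genes, and an E2F word stood in 3 (10.3%), against 3.99%. Among the 8581 genes with a window that were tested in LS411N-BR, the shares were 15.2% for a CHR word, 43.5% for CCAAT, 6.46% for both and 7.07% for an E2F word. Counted by window, since a gene can have several, 65.8% of 38 member windows held a CHR word, against 16.4% of 35116 windows; words of different elements overlapped in 1 member window and in 50 windows overall.

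The promoters of 4 genes are shown because these had the largest called changes in LS411N-BR among members with both elements. ECT2 (chr3:172750556-172750755, plus strand), CDC25C (chr5:138331775-138331974, minus strand) and CENPA (chr2:26785886-26786085, plus strand) are genes that fell in both lines, and CDC25B (chr20:3796140-3796339, plus strand) is the gene that rose in both. Each run of 200 bases is from RefSeq on GRCh38.p14, starts at position -170 relative to the annotated start at position 0, and carries in capitals every CHR or CCAAT word on either strand (ATTGG is CCAAT on the other strand).
ECT2: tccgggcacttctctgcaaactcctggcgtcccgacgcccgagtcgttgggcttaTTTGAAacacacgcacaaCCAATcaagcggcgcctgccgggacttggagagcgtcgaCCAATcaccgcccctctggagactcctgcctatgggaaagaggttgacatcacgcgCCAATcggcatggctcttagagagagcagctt
CDC25C: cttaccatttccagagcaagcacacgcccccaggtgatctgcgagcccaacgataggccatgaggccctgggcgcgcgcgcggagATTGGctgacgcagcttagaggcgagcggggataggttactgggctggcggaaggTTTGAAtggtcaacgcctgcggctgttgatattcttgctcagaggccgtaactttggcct
CENPA: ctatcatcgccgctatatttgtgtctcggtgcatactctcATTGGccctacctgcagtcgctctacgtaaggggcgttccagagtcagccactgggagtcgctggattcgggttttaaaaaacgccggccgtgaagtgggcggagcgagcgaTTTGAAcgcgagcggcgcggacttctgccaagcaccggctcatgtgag
CDC25B: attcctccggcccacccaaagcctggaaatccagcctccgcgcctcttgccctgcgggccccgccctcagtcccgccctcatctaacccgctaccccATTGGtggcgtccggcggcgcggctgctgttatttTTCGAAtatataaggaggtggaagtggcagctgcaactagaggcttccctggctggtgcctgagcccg
The printed CHR word began at position -115 in ECT2, whose printed stretch also holds 3 CCAAT words, at -30 in CDC25C, at -18 in CENPA and at -38 in CDC25B. A second CHR word in the window of ECT2, at position 34, lies past the printed stretch. Genes of either direction held them: of the members with a window, both elements stood in 13 of 20 called lower in LS411N-BR, in 3 of 7 not called and in both called higher. A match is a description of the letters, and binding was not measured here.

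Of the proliferation markers, TOP2A, the topoisomerase that untangles sister chromatids, fell in both lines, and under deposited TPM it stayed lower in LS411N-BR. It had 85.3, 85.0 and 86.7 rescaled TPM in LS411N-BR with DOX, against 110.2, 109.7 and 105 without it, and 96.9, 92.3 and 95.9 in LS411N with DOX, against 126, 130.3 and 129 without it. No library with DOX reached the level of a library without it in either line. The decrease was 21.0% in LS411N-BR (log2 fold change -0.34 ± 0.03 SE, limma adjusted p = 7.9e-06) and 25.9% in LS411N (-0.43 ± 0.04 SE, limma adjusted p = 0.00021). MKI67, which encodes the Ki-67 protein that coats mitotic chromosomes, had 66.9, 61.7 and 68.8 rescaled TPM in LS411N-BR with DOX, against 63.4, 66.7 and 61.7 without it. These libraries overlapped and the gene was not called (0.04, 95% interval -0.06 to 0.14), whereas in LS411N it fell by 13.9% (limma adjusted p = 0.036).

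Among the cyclins, CDK1 and its CDC25 phosphatases, 5 of 6 genes fell and 1 rose in LS411N-BR, and 3 fell and 1 rose in LS411N. Over all tested genes, 31.8% were called lower and 33.1% higher in LS411N-BR, and 16.4% and 18.2% in LS411N. On deposited TPM 2 of them were called lower and 1 higher in LS411N-BR, beside 11.1% and 56.1% of all tested genes. In LS411N none was called lower and 1 higher on that scale, beside 3.43% and 9.75%. Their deposited median in LS411N-BR was 0.06, beside 0.18 over all tested genes. CCNB2, one of the B-type cyclins that activate CDK1, had 68.4, 73.5 and 70.6 rescaled TPM in LS411N-BR with DOX, against 92.9, 88.9 and 87.3 without it. In LS411N it had 64.2, 65.4 and 65.4 with DOX, against 81.7, 84.0 and 91.2 without it, so the groups did not overlap in either line. CCNB2 fell by 21.1% in LS411N-BR and by 24.1% in LS411N (limma adjusted p = 2.9e-05 and 0.00081). Its relative CCNB1 fell by 9.77% in LS411N-BR and by 12.9% in LS411N (limma adjusted p = 0.0019 and 0.016). CCNA2, the cyclin of S phase and early mitosis, fell by 4.96% in LS411N-BR (limma adjusted p = 0.039), a call lost with any single library of the line left out other than replicate 2 without DOX. It averaged 53.1 ± 3.46 rescaled TPM with DOX and 55.6 ± 3.00 without it in LS411N (SD, n = 3 each), where it was not called. CDK1, the mitotic kinase itself, fell by 9.03% in LS411N-BR (limma adjusted p = 0.0055), and its LS411N libraries overlapped, with 62.9, 66.5 and 71.3 rescaled TPM with DOX, against 67.2, 66.5 and 69.8 without it.

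CDC25B and CDC25C, phosphatases that remove the inhibitory phosphates from CDK1, moved in opposite directions. CDC25C had 3.16, 3.57 and 3.42 rescaled TPM in LS411N-BR with DOX, against 4.995, 4.78 and 4.87 without it. In LS411N CDC25C had 7.47, 7.30 and 7.36 rescaled TPM with DOX, against 9.06, 9.45 and 9.16 without it. CDC25C fell by 30.7% in LS411N-BR, the largest percent change among the 36, and by 20.0% in LS411N (log2 fold changes -0.42 ± 0.05 and -0.29 ± 0.05 SE, limma adjusted p = 2.8e-05 and 0.0025). CDC25B had 40.3, 39.8 and 40.7 rescaled TPM in LS411N-BR with DOX, against 32.7, 30.6 and 30.4 without it. In LS411N CDC25B had 37.2, 35.4 and 32.5 rescaled TPM with DOX, against 29.04, 28.5 and 24.6 without it. Every library with DOX lay above every library without it in the same line, a rise of 28.98% in LS411N-BR (0.36 ± 0.03 SE, limma adjusted p = 1.3e-05) and of 28.0% in LS411N (0.35 ± 0.08 SE, limma adjusted p = 0.0085). CDC25B was called higher under each of the scalings tried in both lines, and CDC25C shares exonic bases with FAM53C on the opposite strand, whose reads cannot be told apart where counting ignores strand.

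All 3 mitotic kinases fell in LS411N-BR after rescaling, beside 31.8% of all tested genes called lower. Only AURKA was called in LS411N, beside 16.4% of all tested genes called lower. On deposited TPM none of the 3 was called in either line, also at an unadjusted p under 0.05 in limma. PLK1, the Polo kinase of centrosomes and kinetochores, had 60.6, 56.0 and 58.4 rescaled TPM in LS411N-BR with DOX, against 68.5, 65.8 and 69.1 without it (-0.21 ± 0.04 SE, limma adjusted p = 0.00054). In LS411N it had 39.4, 40.1 and 37.7 with DOX, against 46.5, 47.1 and 39.3 without it, where replicate 3 without DOX lay within the range of the libraries with DOX. Without that library PLK1 was called lower in LS411N (-0.25, limma adjusted p = 0.0013), and so were AURKB (-0.20, 0.0032) and FOXM1 (-0.24, 0.0045). AURKA, the kinase of spindle poles, fell by 9.85% in LS411N-BR and by 18.7% in LS411N. AURKB, the enzyme of the chromosomal passenger complex, fell by 10.2% in LS411N-BR. In LS411N it averaged 61.2 ± 0.902 with DOX and 66.7 ± 6.31 rescaled TPM without it (SD, n = 3 each) and was not called.

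Both partners of the APC/C fell in both lines after rescaling, beside 31.8% of all tested genes called lower in LS411N-BR and 16.4% in LS411N. On deposited TPM their medians were -0.04 in LS411N-BR and -0.30 in LS411N, beside 0.18 and 0.08 over all tested genes. Limma called neither gene on that scale, with 1 lower in LS411N at an unadjusted p under 0.05, beside 6.67% of all tested genes. CDC20, which activates the APC/C and is the target of the checkpoint, had 91.9, 91.3 and 93.9 rescaled TPM in LS411N-BR with DOX, against 113, 109 and 106 without it. In LS411N CDC20 had 70.3, 76.0 and 72.3 rescaled TPM with DOX, against 96.9, 90.4 and 94.3 without it. UBE2C, the ubiquitin-conjugating enzyme of the APC/C, had 88.5, 85.7 and 87.9 rescaled TPM in LS411N-BR with DOX, against 105, 101 and 105 without it. In LS411N UBE2C had 54.0, 52.7 and 52.5 rescaled TPM with DOX, against 74.6, 71.5 and 66.4 without it. The groups of both genes were separate in both lines. UBE2C fell by 15.7% in LS411N-BR and by 25.1% in LS411N (limma adjusted p = 6.7e-05 and 0.00071), and CDC20 by 15.6% and 22.4% (limma adjusted p = 0.00012 and 0.001).

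Of the 5 spindle checkpoint genes, 4 fell in each line after rescaling, beside 31.8% of all tested genes called lower in LS411N-BR and 16.4% in LS411N. On deposited TPM 1 was called lower and 1 higher in LS411N-BR, beside 11.1% and 56.1% of all tested genes. None was called there in LS411N, also at an unadjusted p under 0.05. The deposited medians were -0.03 and -0.17, beside 0.18 and 0.08 over all tested genes. BUB3, which docks the BUB kinases at kinetochores, had 96.2, 96.8 and 101 rescaled TPM in LS411N-BR with DOX, against 128, 125 and 136 without it. In LS411N BUB3 had 79.1, 84.1 and 86.6 rescaled TPM with DOX, against 103, 103 and 112 without it. It fell by 24.3% in LS411N-BR and by 21.5% in LS411N (-0.40 ± 0.04 and -0.35 ± 0.05 SE, limma adjusted p = 1.3e-05 and 0.002), and in LS411N-BR it stayed lower on deposited TPM. BUB1, a kinetochore kinase, fell by 14.1% in LS411N-BR and by 20.7% in LS411N. TTK, the kinase that starts checkpoint signalling, fell by 15.3% in LS411N-BR and by 12.8% in LS411N. MAD2L1, the MAD2 protein that binds CDC20, fell by 18.9% in LS411N-BR, and in LS411N it had 66.8, 76.7 and 80.2 rescaled TPM with DOX, against 83.7, 77.0 and 99.6 without it, a spread in which it was not called. BUB1B (chr15:40161023-40221136, plus strand) encodes a subunit of the mitotic checkpoint complex and was the checkpoint gene not called in LS411N-BR. It had 34.4, 33.4 and 32.5 rescaled TPM in LS411N-BR with DOX, against 34.6, 34.6 and 34.7 without it (not called, -0.05 ± 0.03 SE). BUB1B fell to 27.3, 25.3 and 27.0 in LS411N with DOX, against 32.3, 31.0 and 32.2 without it (limma adjusted p = 0.0045). BUB1B shares exonic bases with the read-through gene BUB1B-PAK6 on the same strand.

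The passenger complex genes fell in LS411N, while limma called neither in LS411N-BR, nor at an unadjusted p under 0.05. On deposited TPM both were called higher in LS411N-BR, beside 56.1% of all tested genes. Their median was then 0.14, beside 0.18 over all tested genes. BIRC5, which encodes survivin, had 39.3, 39.1 and 38.4 rescaled TPM in LS411N-BR with DOX, against 40.4, 40.0 and 41.8 without it, and INCENP, the scaffold of the complex, had 19.1, 17.8 and 18.6, against 19.1, 19.8 and 18.7. In LS411N, BIRC5 fell by 10.0% (limma adjusted p = 0.038) and INCENP by 15.1% (limma adjusted p = 0.012). The BIRC5 call in LS411N was lost without any single library other than replicate 3 without DOX.

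All 5 centromere and kinetochore genes fell in both lines after rescaling, beside 31.8% of all tested genes called lower in LS411N-BR and 16.4% in LS411N. On deposited TPM limma called 2 of them lower in LS411N-BR, beside 11.1% of all tested genes, and none in LS411N. At an unadjusted p under 0.05, 2 were lower in LS411N on that scale, beside 6.67% of all tested genes. The deposited medians were -0.10 and -0.23, beside 0.18 and 0.08 over all tested genes. NUF2 (chr1:163266576-163355764, plus strand), a subunit of the NDC80 complex that grips microtubules, had 27.5, 27.2 and 26.3 rescaled TPM in LS411N-BR with DOX, against 38.6, 35.3 and 38.5 without it. In LS411N NUF2 had 26.9, 25.4 and 27.0 rescaled TPM with DOX, against 34.5, 35.3 and 35.0 without it. NUF2 fell by 27.9% in LS411N-BR and by 24.3% in LS411N (-0.46 ± 0.04 and -0.39 ± 0.05 SE, limma adjusted p = 6.8e-06 and 0.0004). NDC80, its partner in that complex, fell by 10.3% in LS411N-BR and by 12.4% in LS411N. CENPA (chr2:26764289-26801067, plus strand), the histone H3 variant that marks centromeres, had 12.1, 11.8 and 12.3 rescaled TPM in LS411N-BR with DOX, against 16.3, 15.9 and 15.5 without it. In LS411N CENPA had 17.9, 21.0 and 19.6 rescaled TPM with DOX, against 24.4, 24.4 and 22.0 without it. CENPA fell by 24.1% in LS411N-BR and its change in LS411N was -17.3%, with no overlap of the groups in either line. CENPF, a large protein of the outer kinetochore, fell by 19.4% in LS411N-BR and by 27.0% in LS411N, and CENPE, the kinetochore kinesin that brings chromosomes to the spindle equator, fell by 14.7% in LS411N-BR and by 20.1% in LS411N. CENPA shares exonic bases with SLC35F6 on the same strand, so part of its reads cannot be told apart from those of that gene.

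Of the spindle motors and microtubule-binding proteins, KIF11, KIF2C and TPX2 fell in both lines after rescaling and NUSAP1 was called in neither. Of all tested genes, 31.8% were called lower in LS411N-BR and 16.4% in LS411N. On deposited TPM the median of these motors and microtubule-binding proteins in LS411N-BR was 0.05, beside 0.18 over all tested genes. KIF11, the plus-end motor that pushes spindle poles apart, had 59.1, 58.8 and 60.5 rescaled TPM in LS411N-BR with DOX, against 72.9, 74.4 and 72.3 without it. In LS411N KIF11 had 57.2, 58.8 and 61.1 rescaled TPM with DOX, against 68.3, 66.6 and 76.4 without it. Its groups were separate in both lines, and it fell by 18.7% in LS411N-BR and by 16.2% in LS411N (limma adjusted p = 1.3e-05 and 0.014). KIF2C, which removes tubulin from microtubule ends, fell by 12.9% in LS411N-BR, and its change in LS411N was -9.25%. TPX2, which activates AURKA on the spindle, fell by 6.96% in LS411N-BR and by 11.9% in LS411N. NUSAP1, a protein that bundles spindle microtubules, had 94.6, 93.7 and 95.5 rescaled TPM in LS411N-BR with DOX, against 90.9, 91.5 and 94.7 without it, and overlapped between groups in LS411N as well.

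Of the 5 genes of the central spindle and cytokinesis, 2 fell and 1 rose in LS411N-BR after rescaling, beside 31.8% and 33.1% of all tested genes. In LS411N 4 fell, beside 16.4%. On deposited TPM 3 were called higher and 1 lower in LS411N-BR, beside 56.1% and 11.1% of all tested genes. The counts in LS411N-BR were thus near the shares of all genes. ECT2 (chr3:172750682-172821474, plus strand), the exchange factor that activates RhoA at the furrow, fell the most of the 36 on the log2 scale in both lines. It had 84.4, 85.3 and 88.0 rescaled TPM in LS411N-BR with DOX, against 124, 119.7 and 125 without it. In LS411N ECT2 had 84.7, 89.6 and 94.5 rescaled TPM with DOX, against 125, 122 and 128 without it. The gap between the groups was wider than the range within any of them. ECT2 fell by 30.1% in LS411N-BR (-0.51 ± 0.03 SE, limma adjusted p = 6.6e-07) and by 28.4% in LS411N (-0.48 ± 0.05 SE, limma adjusted p = 0.00029). PRC1, which bundles the antiparallel microtubules of the midzone, fell by 15.8% in LS411N-BR and by 17.7% in LS411N.

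KIF23, the kinesin subunit of centralspindlin that recruits ECT2, had 47.0, 44.4 and 45.5 rescaled TPM in LS411N-BR with DOX, against 39.9, 39.4 and 40.1 without it, a rise of 14.7% (0.19 ± 0.03 SE, limma adjusted p = 0.00033). In LS411N KIF23 had 36.8, 35.8 and 38.6 rescaled TPM with DOX, against 34.8, 34.7 and 37.8 without it, where the groups overlapped. RACGAP1, the other subunit of centralspindlin and not one of the 36, averaged 58.6 ± 2.37 rescaled TPM in LS411N-BR with DOX and 54.1 ± 1.12 without it, also a called rise (0.11, limma adjusted p = 0.017; SD, n = 3 each). In LS411N RACGAP1 averaged 41.3 ± 2.06 with DOX and 45.4 ± 2.76 without it and was not called. KIF20A (chr5:138178719-138187715, plus strand), the kinesin that carries the passenger complex to the midzone, had 21.7, 20.0 and 21.0 rescaled TPM in LS411N-BR with DOX, against 20.9, 19.8 and 21.3 without it. In LS411N KIF20A had 15.6, 15.6 and 14.9 rescaled TPM with DOX, against 18.5, 18.5 and 18.2 without it. Its groups overlapped in LS411N-BR and were apart in LS411N, where it fell by 16.4% (limma adjusted p = 0.0039). ANLN, the anillin scaffold of the furrow, had 169.8, 163 and 174 rescaled TPM in LS411N-BR with DOX, against 175, 173 and 178 without it, and fell by 13.2% in LS411N (limma adjusted p = 0.011). On deposited TPM, ANLN, KIF20A and KIF23 were called higher and ECT2 lower in LS411N-BR, beside 56.1% and 11.1% of all tested genes.

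**Figure D3:**
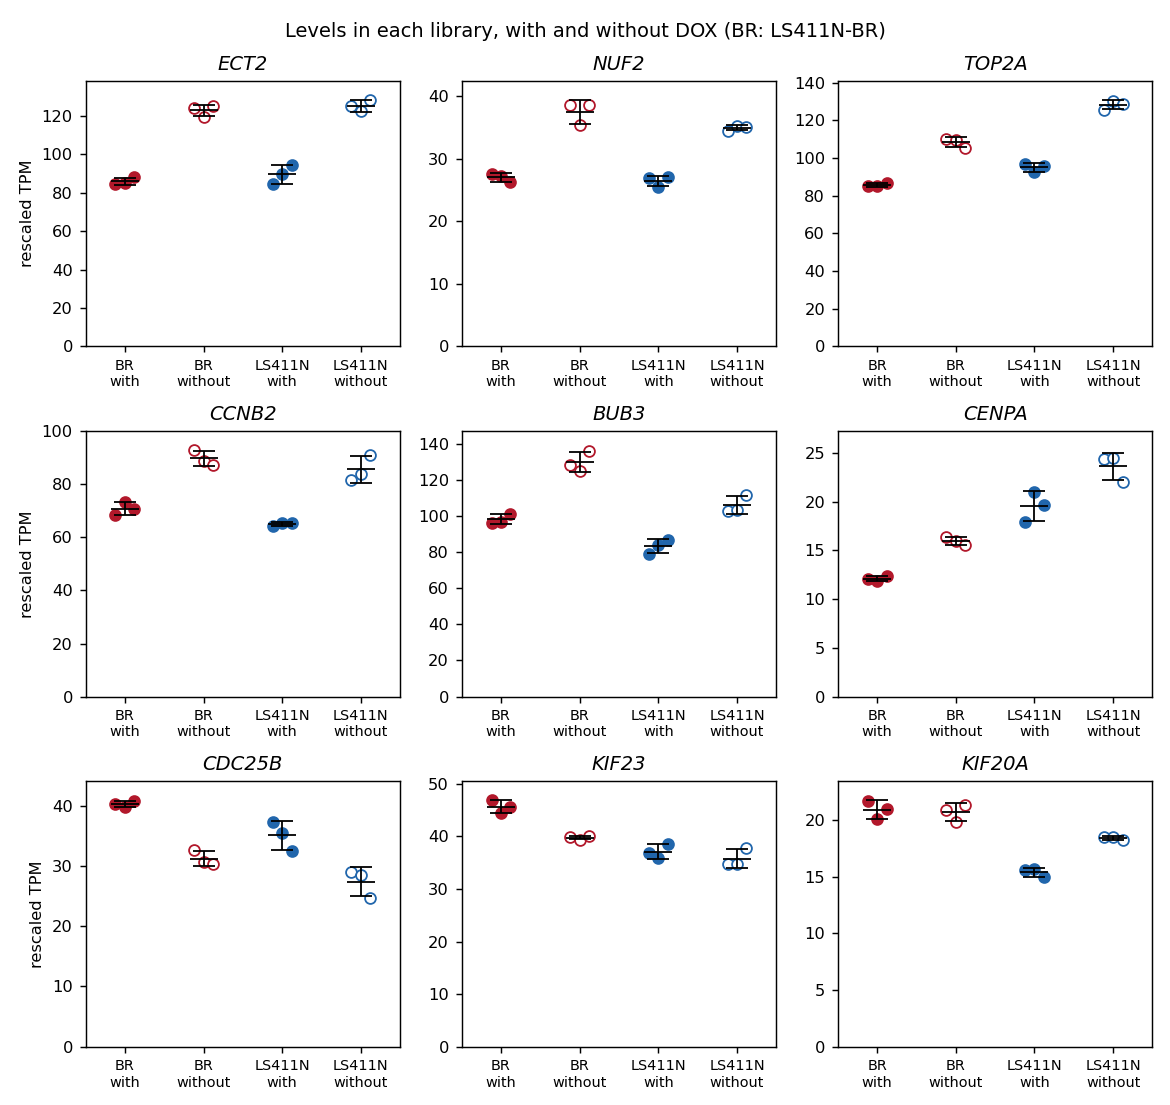
Rescaled TPM (y axis) of 9 of the genes in each of the 12 libraries (points) by group (x axis), with the group mean as a long bar and the SD as short bars; filled points are libraries with DOX, open points without it, red LS411N-BR (BR) and blue LS411N. ECT2, NUF2, TOP2A, CCNB2, BUB3 and CENPA lie lower with DOX in both lines, CDC25B higher, KIF23 higher in LS411N-BR and KIF20A lower in LS411N; on deposited TPM KIF20A is higher with DOX in LS411N-BR and not called in LS411N.

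Of the transcription factors of this programme, FOXM1 fell by 7.31% in LS411N-BR (-0.11 ± 0.03 SE, limma adjusted p = 0.011), while on deposited TPM it was not called and lay at 0.09. In LS411N it had 71.7, 68.9 and 64.0 rescaled TPM with DOX, against 80.6, 81.0 and 69.3 without it, and replicate 3 without DOX overlapped the libraries with DOX. MYBL2, the MYB family partner of MuvB, was not called in either line, with 45.2 ± 1.89 rescaled TPM with DOX and 45.2 ± 1.69 without it in LS411N-BR. In LS411N MYBL2 averaged 55.0 ± 2.45 with DOX and 52.1 ± 2.13 without it (SD, n = 3 each). The 95% intervals of its log2 fold change were -0.09 to 0.09 in LS411N-BR and -0.05 to 0.19 in LS411N.

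Whether DOX moved the 36 genes differently in the 2 lines was tested as the DOX effect in LS411N-BR minus that in LS411N. Limma called 2 members above 0 and none below, beside 4.71% of 11680 tested genes called above and 5.63% called below; at an unadjusted p under 0.05, 9 members lay above, beside 11.9% of all tested genes, and 1 below, beside 13.2%. KIF20A differed by 0.26 ± 0.06 SE (adjusted p = 0.012) and BUB1B by 0.21 ± 0.05 SE (adjusted p = 0.029); both fell in LS411N and were not called in LS411N-BR. On deposited TPM no member was called, and adjusted p was 0.24 for KIF20A and 0.35 for BUB1B. At an unadjusted p under 0.05, 4 members lay above 0 there, beside 10.2% of all tested genes, and none below, beside 2.88%. Leaving out any single library kept KIF20A called, with adjusted p between 0.0065 and 0.043. BUB1B was lost, at adjusted p between 0.057 and 0.086, without replicate 1 of LS411N without DOX, replicate 2 of LS411N with DOX, replicate 1 or 2 of LS411N-BR with DOX, or any 1 replicate of LS411N-BR without DOX. KIF20A shares exonic bases with CDC23 and BRD8 on the opposite strand. CDC23, a subunit of the APC/C, averaged 34.4 ± 1.10 rescaled TPM with DOX and 28.1 ± 0.375 without it in LS411N-BR, and 30.8 ± 0.281 with DOX and 26.4 ± 2.35 without it in LS411N (SD, n = 3 each). It was called higher in both lines, and its part in the KIF20A values was not tested. For the 11 further members called in 1 line alone, the difference itself was not called, with adjusted p between 0.077 and 0.97. MKI67 differed by 0.26, KIF23 by 0.14 and CDK1 by -0.11 (limma adjusted p = 0.077, 0.15 and 0.3).

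Between the lines, the levels of the 36 genes spread over a wider range than between cells with and without DOX, with ratios between 0.459 and 1.87. Without DOX, 19 members were higher in all 3 LS411N-BR libraries than in all 3 LS411N libraries, beside 38.6% of tested genes, and 11 were lower, beside 37.5%; with DOX the counts were again 19 and 11, beside 41% and 40.9%. The median ratio of LS411N-BR over LS411N was 1.12 with DOX and 1.08 without it, against 1.00 and 0.999 over all tested genes. These levels are given as a description with no test, since line and inhibitor cannot be told apart. Of the 36, 17 were higher and 10 lower in LS411N-BR both with and without DOX; on deposited TPM 26 were higher and 4 lower with DOX, beside 55.6% and 23.7% of all tested genes, and 14 higher and 5 lower without it, beside 34.6% and 24.9%.

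CCNA2 stood highest in LS411N-BR relative to LS411N without DOX, with 98.6, 97.8 and 101 rescaled TPM in LS411N-BR and 56.3, 52.4 and 58.3 in LS411N, a ratio of 1.78 without DOX and 1.77 with it. ANLN had ratios of 1.87 with DOX and 1.69 without it, PLK1 1.49 and 1.53, and UBE2C 1.65 and 1.46. At the other end, CDC25C had 4.995, 4.78 and 4.87 rescaled TPM in LS411N-BR and 9.06, 9.45 and 9.16 in LS411N without DOX, a ratio of 0.530, and of 0.459 with DOX. BIRC5 had ratios of 0.649 with DOX and 0.611 without it, CENPA 0.619 and 0.675, and CENPF 0.745 and 0.675. On this scale the 5 checkpoint genes were all higher in LS411N-BR with and without DOX. CENPA, CENPE, CENPF and NDC80 were all lower, and NUF2 was higher without DOX and overlapped with it. Of all tested genes, 38.6% were higher and 37.5% lower in LS411N-BR without DOX with no overlap of libraries, and 41% and 40.9% with DOX. KIF11 and ECT2 overlapped between the lines in both conditions.

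**Figure D4:**
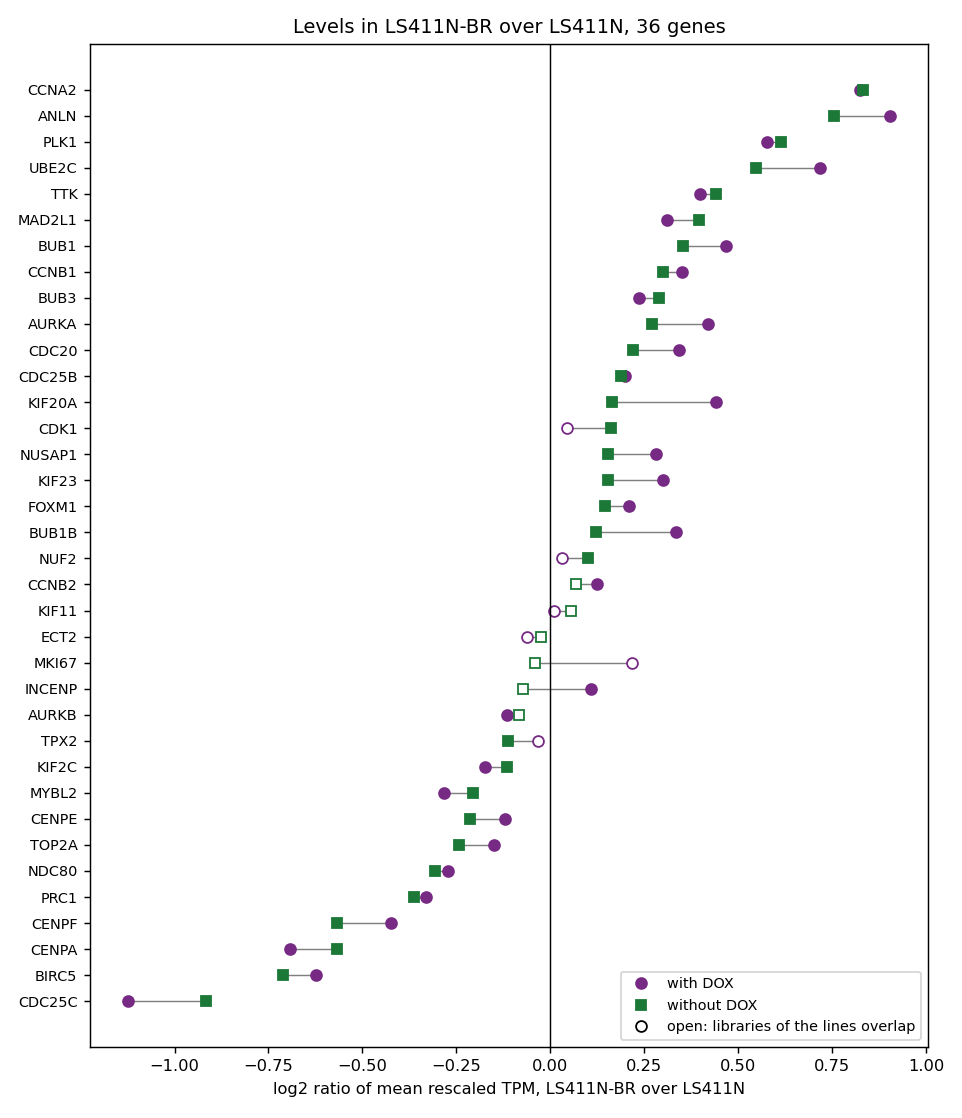
Log2 ratio of mean rescaled TPM in LS411N-BR over LS411N (x axis) for each of the 36 genes (rows, sorted by the ratio without DOX), with DOX as circles and without DOX as squares, open where the libraries of the lines overlap. Ratios run between 0.459 for CDC25C and 1.87 for ANLN with DOX, and those of a gene lie close together in both conditions; on deposited TPM 26 genes lie higher and 4 lower with DOX, beside 55.6% and 23.7% of all tested genes.

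Other genes of mitosis were read from lists chosen by function, with earlier results of these data known. Of the 110 genes of kinetochores, spindle, checkpoint and APC/C, condensin and cohesin, and mitotic entry in these lists, 64 were called lower and 9 higher in LS411N-BR and 47 lower and 4 higher in LS411N, with medians of -0.14 and -0.15. Over all tested genes, the shares called lower and higher were 31.8% and 33.1% in LS411N-BR and 16.4% and 18.2% in LS411N. On deposited TPM 19 of the 110 were lower and 36 higher in LS411N-BR, beside 11.1% and 56.1% of all tested genes, and 2 were lower and 1 higher in LS411N, beside 3.43% and 9.75%. Of 30 spindle, motor and centrosome genes, 21 were lower in each line, with medians of -0.25 in both, among them HMMR, which organises spindle poles (-0.51 in LS411N-BR and -0.40 in LS411N), and KIF14, a cytokinesis kinesin (-0.38 and -0.49). On deposited TPM 7 of them were lower and 7 higher in LS411N-BR and 1 lower in LS411N. Of 31 kinetochore and centromere genes, 17 were lower in LS411N-BR and 11 in LS411N, among them the centromere subunit CENPH (-0.61 and -0.36), while 1 was higher in each line, the SKA subunit SKA2 (0.27 and 0.32). Of 17 condensin, cohesin and passenger genes, 13 were lower in LS411N-BR and 6 in LS411N, with the condensin gene NCAPD2 at -0.45 and -0.40. On deposited TPM 5 of the 31 and 3 of the 17 were lower in LS411N-BR, and 11 and 4 were higher. In LS411N that scale gave 1 higher among the 31 and no other call in either list. After rescaling, 9 of 22 checkpoint and APC/C genes were lower and 2 higher in LS411N-BR, and 5 lower and 1 higher in LS411N. Their medians were -0.08 and -0.04. Of 10 mitotic entry genes, 4 were lower and 3 higher in LS411N-BR and 4 lower and 1 higher in LS411N. Their medians were -0.02 and -0.04. The APC/C subunit gene ANAPC13 fell by 47.3% in LS411N-BR and by 45.4% in LS411N, more than any of the 36, and stayed lower on deposited TPM in both lines. CDC25A, the third CDC25 phosphatase, averaged 20.6 ± 0.680 rescaled TPM with DOX and 14.1 ± 0.0283 without it in LS411N-BR, and 18.7 ± 0.433 with DOX and 14.9 ± 0.548 without it in LS411N (SD, n = 3 each), a called rise in both lines. The midbody protein gene CEP55 also rose in both (0.30 and 0.29); on deposited TPM both genes were called in LS411N-BR and not in LS411N.

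Genes listed as DREAM, E2F and RB regulators were measured as mRNA in the same libraries. Whether they act on the promoters of the members in these cells, or had a part in the members' changes, was not tested. CDKN1A, the p21 inhibitor of cyclin-dependent kinases, had 55.2, 54.0 and 52.9 rescaled TPM in LS411N-BR with DOX, against 18.5, 17.7 and 18.1 without it. In LS411N CDKN1A had 23.3, 22.4 and 21.6 rescaled TPM with DOX, against 7.86, 8.54 and 7.25 without it. It rose by 198% in LS411N-BR and by 185% in LS411N (1.53 ± 0.03 and 1.40 ± 0.06 SE, limma adjusted p = 1.3e-09 and 2.7e-06), a change far outside the spread of any group. RBL1, the p107 pocket protein of DREAM, fell by 51.8% in LS411N-BR and by 45.1% in LS411N, and E2F4, its DNA-binding partner, fell by 36.8% in LS411N-BR and by 28.1% in LS411N, a call lost in LS411N on deposited TPM (limma adjusted p = 0.065). Of 20 DREAM, E2F and RB regulators, 11 were lower and 8 higher in LS411N-BR and 3 lower and 4 higher in LS411N after rescaling. Their medians of -0.11 and 0.02 became 0.08 and 0.09 on deposited TPM, beside 0.18 and 0.08 over all tested genes. Beside the 31.8% of all tested genes called lower and 33.1% called higher in LS411N-BR, and 16.4% and 18.2% in LS411N, the regulators' counts in LS411N were near the shares of all genes. Among 29 genes of G1/S and replication, 17 were lower and 2 higher in LS411N-BR and 9 lower and 4 higher in LS411N. Their medians of -0.17 and -0.07 became 0.03 and 0.00 on deposited TPM, beside 0.18 and 0.08 over all tested genes. CCND1, the cyclin of early G1, rose by 63.1% in LS411N-BR and by 58.9% in LS411N. CDKN1A, RBL1 and CCND1 kept their direction and call on deposited TPM in both lines.

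**Figure D5:**
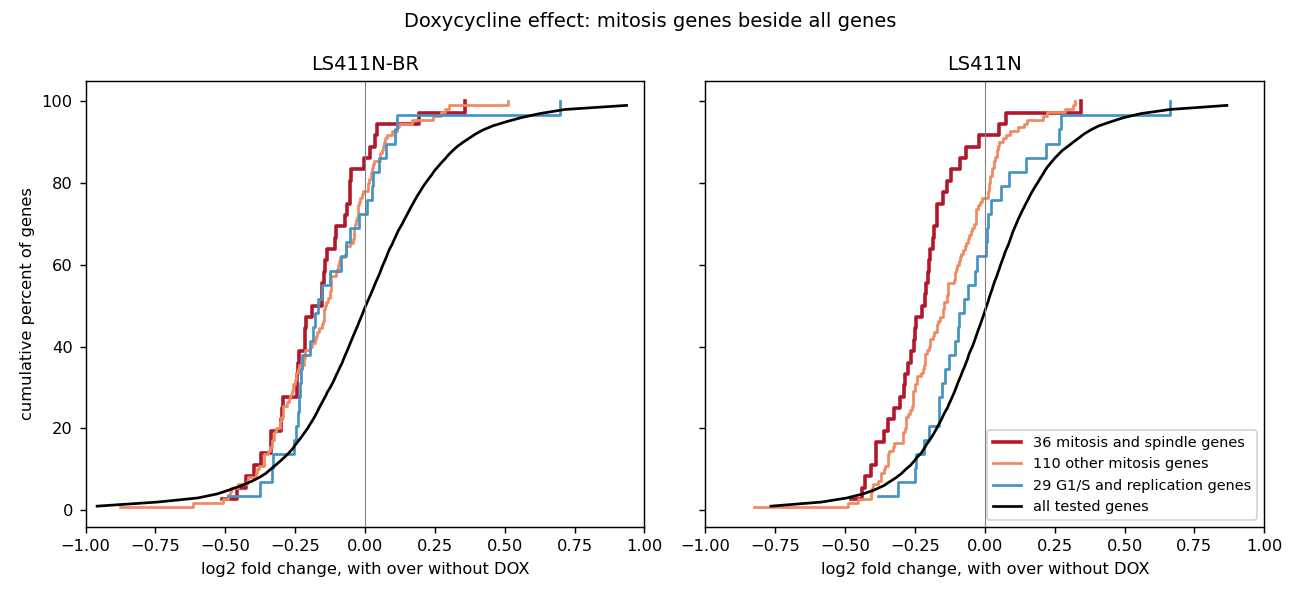
Cumulative percent of genes (y axis) below a given log2 fold change with DOX over without DOX (x axis, rescaled TPM + 1) in LS411N-BR (left) and LS411N (right), for the 36 genes, 110 other mitosis genes, 29 G1/S and replication genes and all tested genes. The curve of the 36 lies left of the curve of all genes over most of its range, with medians of -0.17 and -0.22 against 0.00 and 0.01; on deposited TPM the median of the 36 in LS411N-BR becomes 0.03, against 0.18 for all genes.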

How the data were processed

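RNA-seq libraries were made with the TruSeq Stranded mRNA kit, per the labels' protocols. The deposited values are TPM for each gene and library, made by the authors in 1 table per line, each library summing to 1000000. STAR, DESeq2 and GRCh38 are named without roles, per the submitters' processing notes for the files the authors deposited. The TPM program, the annotation and the strand setting are not known here, nor is read depth, so no interval for counting error can be given.

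Each library's TPM were divided by a median-of-ratios factor over the 10425 genes that reached 1 TPM in all 12 libraries. The fits kept genes reaching 1 TPM in 3 or more libraries and were made with limma 3.58.1 (R 4.3.3, trend, pseudocount 1 TPM) on log2 values, for the DOX effect within each line and for the difference of these effects over all 12 libraries, with Benjamini-Hochberg adjusted p under 0.05 as the call. Fold changes are on the log2(value + pseudocount) scale, which understates changes of low genes. The fits were also run on simulated data with known changes and no differences in library scaling, so that run does not bear on the choice of scaling. All 36 members passed the filter in both lines. Levels between lines were described without a test.

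The members and the lists were chosen with earlier results of these data known. MUC1 and all members are named, and from each other list the 2 called genes with the largest absolute log2 fold change in each direction of each comparison could be. Alternatives were TPM as deposited, rescaling within a line's own table, quantile normalization, pseudocount 0.1, a filter of 5 TPM and none, no trend, robust moderation, the spread of all 12 libraries, a replicate block and each library left out; the protein-coding sum was added after seeing the data. Promoter windows are from RefSeq on GRCh38.p14. For a gene with several windows holding both elements, the one whose CHR word lay nearest before the start was printed. That choice was made after seeing them and sets part of the printed positions. Gene coordinates and exon overlaps are from GENCODE release 29 on GRCh38.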

Additional observations from a re-analysis of the deposited data

Results flagged for a closer look

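These genes are given because the DOX effect in LS411N-BR minus that in LS411N was called by limma (Benjamini-Hochberg adjusted p under 0.05) after rescaling. Among the 36 genes, KIF20A differed by 0.26 and BUB1B by 0.21 on the log2 scale. Of the genes named from other lists, the positive differences were 0.28 for CENPO, a kinetochore subunit, 0.25 for RACGAP1, 0.22 for the transcription factor E2F3 and 0.20 for CDC25A. The negative differences were -0.18 for BORA, an activator of Aurora A, -0.22 for RBL2, the p130 pocket protein, -0.25 for ANAPC4, an APC/C subunit, -0.26 for RB1, the retinoblastoma protein, and -0.26 for CENPH. In replication, RRM2, a subunit of ribonucleotide reductase, differed by -0.34 and RFC3, a clamp loader subunit, by -0.35. None of these 13 differences was called by limma on TPM as deposited, with adjusted p between 0.17 and 0.87. With libraries rescaled to the sum over protein-coding genes, an alternative added after seeing the data, KIF20A, BUB1B, CENPO, CENPH, RRM2 and RFC3 stayed called and the other 7 did not.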

How the results depend on the processing

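Of the settings tried, TPM as deposited changed the most. In LS411N-BR it gave 6351 genes higher and 1252 lower, and 10 members higher and 7 lower. The member median was 0.026, beside 0.18 over all tested genes. The sign turned for CCNA2 (0.13), CCNB1 (0.056), CDK1 (0.067), AURKA (0.054), AURKB (0.049), BUB1B (0.15), BIRC5 (0.14), INCENP (0.14), NDC80 (0.047), KIF2C (0.0054), TPX2 (0.10), ANLN (0.15), FOXM1 (0.094) and MYBL2 (0.20). In LS411N it gave 1100 genes higher and 387 lower, 0 members lower by limma (6 at an unadjusted p under 0.05), a median of -0.14, and a turned sign for CCNA2 (0.013) and CDK1 (0.058). For the difference between lines it gave 162 genes above and 85 below, 0 members above by limma (4 at an unadjusted p under 0.05), a median of 0.17, and a turned sign for CCNA2 (0.12), CDK1 (0.0088), PLK1 (0.079), AURKB (0.088) and MAD2L1 (0.035). Between lines, 5 members were lower in LS411N-BR without DOX and 4 with it. The protein-coding sum gave medians of -0.14 in LS411N-BR and -0.19 in LS411N, with MYBL2 at 0.035 in LS411N-BR and CDK1 at 0.011 in LS411N. Quantile normalization gave medians of -0.20, -0.25 and, for the difference, 0.064, with KIF20A at -0.015 in LS411N-BR and CCNA2 at 0.013 for the difference. A filter of 5 TPM gave a median of -0.15 in LS411N-BR, where CDC25C was not tested.

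With each library left out in turn, LS411N gave 1312 to 2777 genes higher and 1181 to 2507 lower, lowest without replicate 2 with DOX and highest without replicate 3 without DOX, 18 to 29 members lower, and medians of -0.24 to -0.22. The difference gave 285 to 1082 genes above and 378 to 1233 below, lowest without replicate 1 of LS411N-BR with DOX and highest without replicate 3 of LS411N without DOX, 1 to 4 members above, and medians of 0.043 to 0.076. Signs turned for KIF20A (-0.014 to 0.045) and MYBL2 (-0.035 to 0.023) in LS411N-BR and for CDK1 (-0.068 to 0.021) in LS411N. For the difference they turned for MUC1 (-0.22 to 0.11), CCNA2 (-0.052 to 0.041), PLK1 (-0.088 to 0.039) and AURKB (-0.076 to 0.046). Over all settings, 994 values of single genes in LS411N-BR, 890 in LS411N and 405 for the difference kept their direction and their side of the threshold. In the same order, 28, 99 and 105 were weaker, 4, 9 and 2 were stronger, and 22, 4 and 12 turned sign.

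The replicate numbers did not pair the libraries. Same-numbered libraries with and without DOX correlated at 0.031, -0.003 and 0.004 in LS411N-BR and at 0.026, 0.020 and 0.192 in LS411N, after removal of the group means. With the replicate number as a block, 25 members were lower and 2 higher in LS411N-BR and 27 lower and 1 higher in LS411N. Depth limits cannot be given, since read totals are unknown.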
